A study of Homo sapiens with 11 samples.

Results

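The WNT ligands, their receptors and their regulators were followed in liver tumours grown from a human pancreatic carcinoma line with and without knockdown of NPTX1, which encodes the secreted neuronal pentraxin 1. The genes were chosen by symbol: the WNT, FZD, DKK, SFRP and RSPO families, LGR4 to LGR6, LRP5 and LRP6, ROR1 and ROR2, AXIN1 and AXIN2, NKD1 and NKD2, the TCF/LEF factors, and CTNNB1, APC, RNF43, ZNRF3, PORCN and RYK. This rule took 62 of the 23434 rows of the authors' deposited table, and it used no measured value. All 11 tumour libraries came from PANC1 LM3, a liver-metastatic derivative of PANC1, an established cell line from a human pancreatic ductal carcinoma. The knockdown libraries carried either of 2 short hairpin RNAs against NPTX1, shNPTX1_3 (3 libraries) or shNPTX1_4 (4 libraries), and are labelled with the genotype NPTX1 knock down. The 4 control libraries carried a control hairpin, shCTRL, and are labelled WT. In all 3 groups the spleen received 500000 cells on day 1, and on day 21 RNA was purified from the tumours that had formed in the liver. All tumours therefore descend from a single line, and the labels, which call the libraries biological replicates, do not say that different animals were used. The p-values below thus measure only the variation among these libraries, some of which may be technical.

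WNT proteins are secreted lipid-modified ligands that bind frizzled receptors together with the co-receptors LRP5 and LRP6. In the canonical branch this binding stops a destruction complex built on AXIN and APC from degrading β-catenin, which then enters the nucleus and activates genes through TCF and LEF factors. Secreted DKK and SFRP proteins restrain the ligands or co-receptors, the ligases RNF43 and ZNRF3 remove frizzleds from the surface, and R-spondins acting with LGR receptors clear those ligases. In pancreatic ductal carcinoma, loss of RNF43 is known to make tumour cells depend on WNT ligands.

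Values are normalized counts, which are read counts divided by a size factor for each library, and the authors' deposited table gives their mean in each group. Its log2 fold change sets the 7 knockdown libraries, as 1 group, over the 4 shCTRL libraries. A gene was called at a DESeq2 adjusted p under 0.05 as deposited, which was given for 18427 named genes. NPTX1 itself averaged 46.5 normalized counts in shNPTX1_3 tumours and 38.4 in shNPTX1_4 tumours, against 103 in shCTRL tumours, in the authors' deposited table. Library depths were estimated as the size factor, worked out from the steps of the low group means, times the group's total of normalized counts. These estimates ran between 10800000 and 26000000 reads on genes in the knockdown libraries and between 13000000 and 41000000 in shCTRL libraries. Of 5 carcinoma epithelial markers 4 were called, all higher with knockdown. For this and the next marker lists, 27.3% of all named genes with an adjusted p were called (15.8% higher and 11.5% lower). The sum of the 5 epithelial markers was 56172 normalized counts in shNPTX1_3, 28832 in shNPTX1_4 and 15915 in shCTRL tumours, KRT8 giving the largest part in each group. Hepatocyte markers stood far lower (7 genes, 2 called, summing to 190 normalized counts in shNPTX1_3, 99.9 in shNPTX1_4 and 92.2 in shCTRL), with ALB and TTR under 1 in every group. The 6 endothelial genes, none called, summed to 424, 369 and 372 in shNPTX1_3, shNPTX1_4 and shCTRL tumours, and the 6 leukocyte genes, none called, to 927, 763 and 861. The 8 fibroblast and stellate cell genes, 2 called, summed to 6525 normalized counts in shNPTX1_3, 3466 in shNPTX1_4 and 1742 in shCTRL tumours. The called genes, both higher, were COL3A1, with 5517 in shNPTX1_3, 2247 in shNPTX1_4 and 731 in shCTRL tumours, and LUM, with 24.1 in shNPTX1_3, 13.3 in shNPTX1_4 and 8.09 in shCTRL tumours. Of the 6 not called, COL1A2 had 17.8 in shNPTX1_3 and 17.5 in shNPTX1_4, against 74.3 in shCTRL tumours, and COL1A1 had 701 in shNPTX1_3 and 1019 in shNPTX1_4, against 726 in shCTRL tumours. ACTA2 had 163 in shNPTX1_3 and 75.6 in shNPTX1_4, against 128 in shCTRL tumours, and DCN, PDGFRB and RGS5 each lay between 2.41 and 91.4 in every group. All these are human gene symbols, while the builds named by the submitters are human (hg19) and mouse (mm39). Whether these counts measure host cells was not tested, nor was the part of these marker differences in the results below.

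With NPTX1 knockdown, the secreted inhibitor DKK1, the R-spondin receptor LGR4, the ligands WNT9A and WNT10A, the inhibitor SFRP4 and the factor LEF1 rose at least 2-fold. Expression of AXIN2, TCF7L1, ROR2 and WNT10B fell to under 0.5 of the shCTRL level. Of the 62 genes, 54 had an adjusted p in the authors' deposited table, of which 10 were higher, 12 lower and 32 not called. That is 40.7% of the 54, beside 27.3% of the 18427 named genes with an adjusted p (15.8% higher and 11.5% lower). Their median log2 fold change was -0.02, and that of all genes was -0.01. For all 22 called genes both hairpin means lay on the same side of the shCTRL mean. Calling with the hairpins as 1 group favours such genes, and both means share the shCTRL libraries. No likeness of the hairpins is therefore read from this. In bulk tumour RNA, a change in the share of cells expressing a gene and a change in its RNA per cell cannot be told apart.

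**Figure D1:**
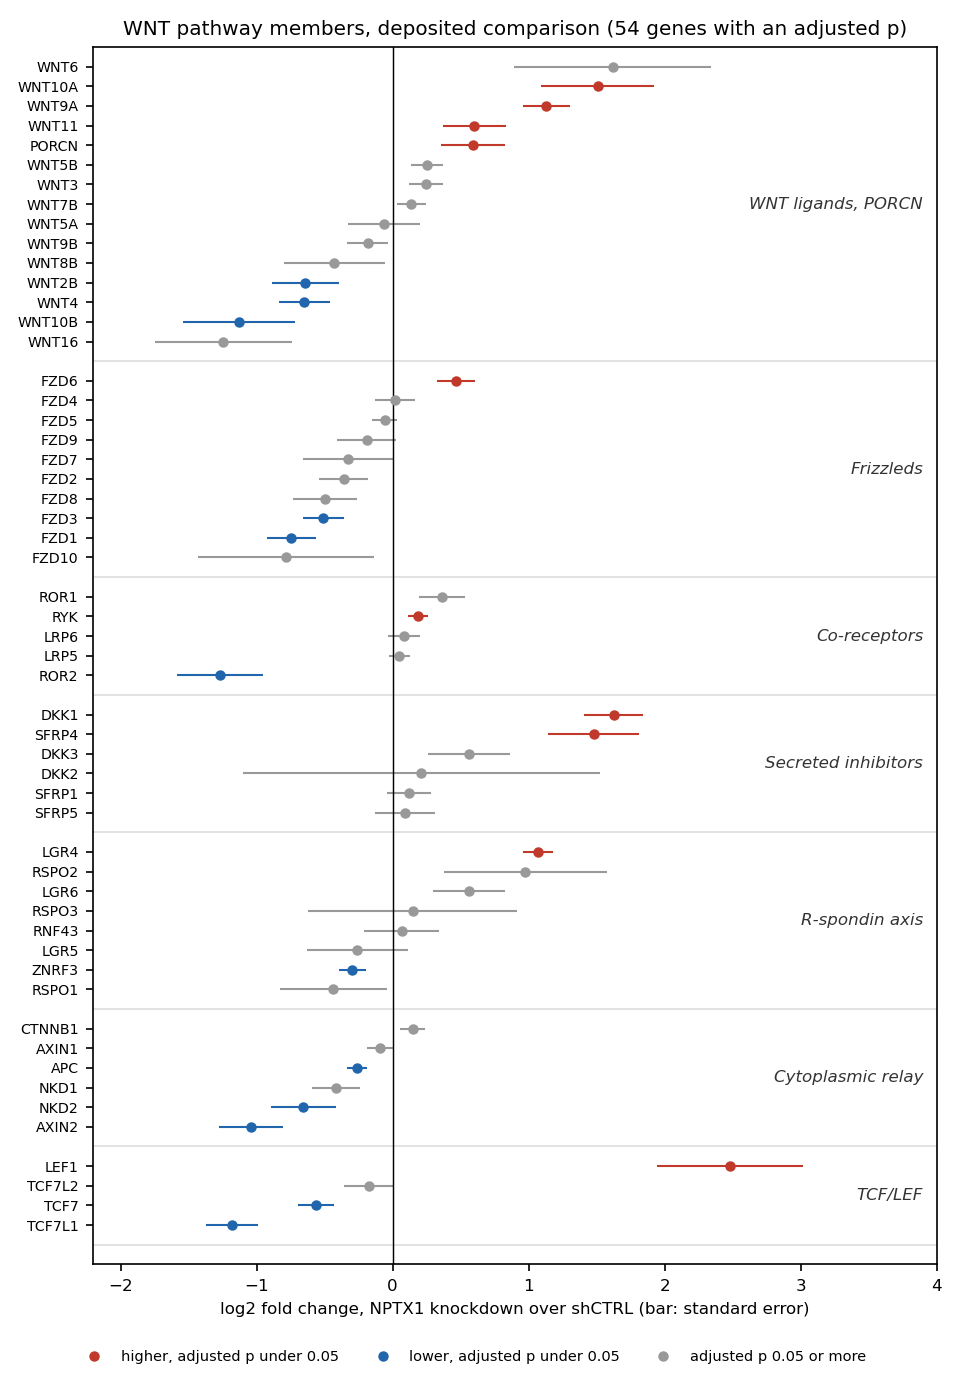
Log2 fold change of the 54 genes with an adjusted p, knockdown over shCTRL, with its standard error (bars), from the authors' deposited table. The x axis is the log2 fold change and each row is a gene, by role; red and blue points are the 10 genes called higher and the 12 called lower, and grey points are not called. LEF1 lies farthest right at 2.48. The cytoplasmic relay, with 6 genes, has none called higher, beside 15.8% of all genes.

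DKK1, which binds LRP5 and LRP6 and so keeps WNT from forming its receptor complex, had the lowest adjusted p among the secreted inhibitors. Its promoter is shown because it alone, among the promoters of these genes, held a TCF-type motif in the letters searched. The 250 bases before the start of DKK1 (RefSeq, GRCh38.p14, chr10:52314031-52314280, plus strand) read as follows, with the motif in capitals.

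DKK1: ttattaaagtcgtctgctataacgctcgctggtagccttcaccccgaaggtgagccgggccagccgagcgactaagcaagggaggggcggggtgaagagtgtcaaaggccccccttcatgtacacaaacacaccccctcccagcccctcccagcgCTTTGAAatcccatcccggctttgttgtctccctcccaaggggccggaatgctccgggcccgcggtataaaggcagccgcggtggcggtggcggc

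The letters searched were CTTTGAT and CTTTGAA on both strands, which are core forms of the TCF/LEF recognition sequence and cannot overlap each other on the same strand. Promoters were at hand for 44 of the 62 genes (55 promoters), of which 1 promoter matched. Over all 35116 promoters of the same length, 5.94% held either motif. The DKK1 match begins 95 bases before the start. The median GC content was 68.8% in the promoters of these genes, beside 58.0% in all promoters. A match of letters is a description and does not show binding.

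DKK1 averaged 3783 normalized counts in shNPTX1_3 tumours and 2780 in shNPTX1_4 tumours, against 1042 in shCTRL tumours, in the authors' deposited table. Both knockdown means were over 2-fold above shCTRL, that of shNPTX1_3 being the higher. The log2 fold change of DKK1 was 1.63 (SE 0.22), a 3.09-fold rise (DESeq2 adjusted p 4.71e-12, the authors' deposited table). GENCODE places the antisense gene PRKG1-AS1 over 9.61% of its exon bases, and the sources used here do not give the strand setting of the counting.

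SFRP4 encodes a secreted frizzled-related protein that binds WNT ligands. Its reads could be worked out for every library: they came to 60.1, 42.0 and 38.8 normalized counts in shNPTX1_3, and 144, 78.5, 109 and 115 in shNPTX1_4, against 29.1, 36.9, 31.6 and 23.0 in shCTRL libraries. All 7 knockdown libraries lay above all 4 shCTRL libraries, and the 4 shNPTX1_4 libraries lay above the 3 shNPTX1_3 libraries. SFRP4 rose by 1.48 on the log2 scale (SE 0.33, DESeq2 adjusted p 1.3e-04, the authors' deposited table). The log2 ratio of library means stayed between 1.29 and 1.60 when each library was left out in turn.

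The other secreted inhibitors were not called. DKK3, a DKK family member whose action on WNT signalling varies between systems, averaged 4645 normalized counts in shNPTX1_3 and 2294 in shNPTX1_4, against 2234 in shCTRL tumours. Only the shNPTX1_3 mean stood apart, and the authors' deposited table gives DKK3 a log2 fold change of 0.56 (SE 0.30, DESeq2 adjusted p 0.150). SFRP1, the other well-expressed frizzled-related inhibitor, averaged 314 in shNPTX1_3 and 359 in shNPTX1_4, against 313 in shCTRL tumours. SFRP5, of the same family, had 50.9, 25.9 and 61.0 normalized counts in shNPTX1_3 libraries and 37.0, 46.1, 35.2 and 50.0 in shNPTX1_4 libraries, against 36.4, 41.5, 46.8 and 40.2 in shCTRL libraries, so that its groups overlapped. DKK2, DKK4 and SFRP2 averaged under 10 normalized counts over all libraries.

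The R-spondin axis held the gene with the lowest adjusted p of all 62. LGR4, a receptor for R-spondins, averaged 3098 normalized counts in shNPTX1_3 and 3806 in shNPTX1_4 tumours, against 1673 in shCTRL tumours. Its log2 fold change was 1.07 (SE 0.11), or 2.10-fold (DESeq2 adjusted p 3e-19, the authors' deposited table). ZNRF3, a membrane ubiquitin ligase that removes frizzleds and is itself removed through R-spondin and LGR, averaged 294 in shNPTX1_3 and 276 in shNPTX1_4, against 346 in shCTRL tumours. It fell by 0.29 on the log2 scale (SE 0.10, DESeq2 adjusted p 0.0195, the authors' deposited table). The counts of these 2 genes thus moved in opposite directions, LGR4 by more.

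The partner ligase RNF43 averaged 32.0 normalized counts in shNPTX1_3 and 44.9 in shNPTX1_4, against 37.8 in shCTRL tumours, and was not called. Its exons are shared over 57.6% of their bases with the gene model AC004687.2 on the same strand, and over 20.3% with TSPOAP1-AS1 on the other, so its count is uncertain. LGR6 averaged 93.5 in shNPTX1_3 and 93.9 in shNPTX1_4, against 63.6 in shCTRL tumours, and was not called (DESeq2 adjusted p 0.0968, the authors' deposited table). LGR5, which marks stem cells in the intestine, averaged 10.6 in shNPTX1_3 and 13.2 in shNPTX1_4, against 14.7 in shCTRL tumours. The R-spondin ligands were low: RSPO2 averaged 7.82 in shNPTX1_3 and 30.7 in shNPTX1_4, against 10.7 in shCTRL tumours, and was not called (DESeq2 adjusted p 0.222 in the authors' deposited table). RSPO1 averaged 14.4, 11.2 and 16.2 in shNPTX1_3, shNPTX1_4 and shCTRL tumours, while RSPO3 and RSPO4 averaged under 10 over all libraries.

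Among the 19 WNT ligands, 14 had an adjusted p, of which 3 were higher (WNT9A, WNT10A and WNT11), 3 lower (WNT4, WNT2B and WNT10B) and 8 not called. Over all genes 15.8% were higher and 11.5% lower. None of the 6 called ligands was the most abundant: per kilobase of merged exons, WNT5B and WNT7B led with 110 and 108 normalized counts over all libraries, against 20.6 for WNT9A and 19.4 for WNT4. WNT7B, linked to canonical signalling in pancreatic carcinoma lines, averaged 583 normalized counts in shNPTX1_3 and 554 in shNPTX1_4, against 512 in shCTRL tumours. WNT5B, a ligand of the β-catenin-independent branch, averaged 489 in shNPTX1_3 and 516 in shNPTX1_4, against 424 in shCTRL tumours. In the authors' deposited table their log2 fold changes were 0.14 (SE 0.11, DESeq2 adjusted p 0.349) for WNT7B and 0.25 (SE 0.12, DESeq2 adjusted p 0.10) for WNT5B.

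WNT9A had 90.2, 110 and 140 normalized counts in the shNPTX1_3 libraries and 99.9, 97.2, 94.2 and 81.4 in the shNPTX1_4 libraries, against 42.3, 48.1, 41.8 and 53.1 in the shCTRL libraries. Every knockdown library lay above every shCTRL library, and the hairpins overlapped. The log2 fold change of WNT9A was 1.13 (SE 0.17, 2.19-fold, DESeq2 adjusted p 4.6e-09) in the authors' deposited table, and the log2 ratio of library means stayed between 1.04 and 1.21 with each library left out.

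WNT10A, a canonical ligand known from tooth and skin development, had 57.6, 40.4 and 46.2 normalized counts in shNPTX1_3 libraries and 27.4, 32.4, 20.4 and 15.1 in shNPTX1_4 libraries, against 5.46, 17.2, 7.59 and 18.7 in shCTRL libraries. The shNPTX1_3 libraries lay above all others, while shNPTX1_4 and shCTRL libraries overlapped, since 1 shNPTX1_4 library had less than 2 shCTRL libraries. WNT10A rose by 1.51 on the log2 scale (SE 0.42, DESeq2 adjusted p 0.0024) in the authors' deposited table. WNT6, its neighbour in the genome, had 15.0, 17.8 and 18.5 in shNPTX1_3 libraries and 3.70, 1.96, 2.27 and 6.98 in shNPTX1_4 libraries, against 0.910, 4.55, 2.53 and 4.31 in shCTRL libraries. The 3 shNPTX1_3 libraries again stood apart, and WNT6 was not called for the hairpins together (log2 fold change 1.62, SE 0.73, DESeq2 adjusted p 0.0808, the authors' deposited table).

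WNT11, a ligand of the β-catenin-independent branch, averaged 44.5 normalized counts in shNPTX1_3 and 40.9 in shNPTX1_4, against 28.5 in shCTRL tumours. It rose by 0.60 on the log2 scale (SE 0.23, DESeq2 adjusted p 0.0388, the authors' deposited table), and this call was lost when the group means were scaled to the same total. PORCN, the acyltransferase that lipid-modifies WNT ligands before secretion, averaged 50.4 in shNPTX1_3 and 59.3 in shNPTX1_4, against 36.2 in shCTRL tumours. Its log2 fold change of 0.59 (SE 0.24, DESeq2 adjusted p 0.0463, the authors' deposited table) lost its call under the same scaling and when every gene with a p was adjusted for.

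WNT4, which acts in kidney and reproductive tract development, averaged 81.0 normalized counts in shNPTX1_3 and 68.0 in shNPTX1_4, against 113 in shCTRL tumours, and fell by 0.65 on the log2 scale (SE 0.19, DESeq2 adjusted p 0.0038, the authors' deposited table). WNT2B, a canonical ligand, averaged 18.3 in shNPTX1_3 and 22.8 in shNPTX1_4, against 32.8 in shCTRL tumours, a log2 fold change of -0.64 (SE 0.25, DESeq2 adjusted p 0.0387, the authors' deposited table). Its exons overlap those of ST7L on the opposite strand over 21.2% of their bases, so without the strand setting reads of WNT2B and ST7L cannot be separated. WNT10B, another canonical ligand, averaged 4.74 in shNPTX1_3 and 9.48 in shNPTX1_4, against 16.9 in shCTRL tumours, a log2 fold change of -1.13 (SE 0.41, DESeq2 adjusted p 0.0269, the authors' deposited table). Both hairpin means of these 3 ligands lay below shCTRL.

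The remaining ligands were not called or had no adjusted p. WNT3 had 140, 121 and 161 normalized counts in shNPTX1_3 and 116, 140, 148 and 133 in shNPTX1_4 libraries, against 106, 113, 125 and 121 in shCTRL libraries, which overlap. WNT9B averaged 106, 135 and 139 in shNPTX1_3, shNPTX1_4 and shCTRL tumours. WNT5A, the best-studied ligand of the β-catenin-independent branch, averaged 76.9 in shNPTX1_3 and 41.2 in shNPTX1_4, with shCTRL between them at 58.6. WNT8B had 10.9, 4.85 and 5.54 in shNPTX1_3 libraries and 8.14, 10.8, 13.6 and 9.30 in shNPTX1_4 libraries, against 11.4, 11.6, 15.2 and 12.9 in shCTRL libraries. The shNPTX1_3 libraries of WNT8B were all below shCTRL, by little in 1 of them, and the shNPTX1_4 libraries overlapped with shCTRL. WNT16 averaged 8.23 in shNPTX1_3 and 3.83 in shNPTX1_4, against 12.1 in shCTRL tumours, just outside the threshold (DESeq2 adjusted p 0.0504, the authors' deposited table). The ligands WNT1, WNT2, WNT3A, WNT7A and WNT8A averaged under 1 normalized count and had no adjusted p: WNT8A had 2 reads in a single shNPTX1_3 library, and WNT2 had 1 read in a single shNPTX1_4 library. No difference was detectable at this depth for these 5.

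**Figure D2:**
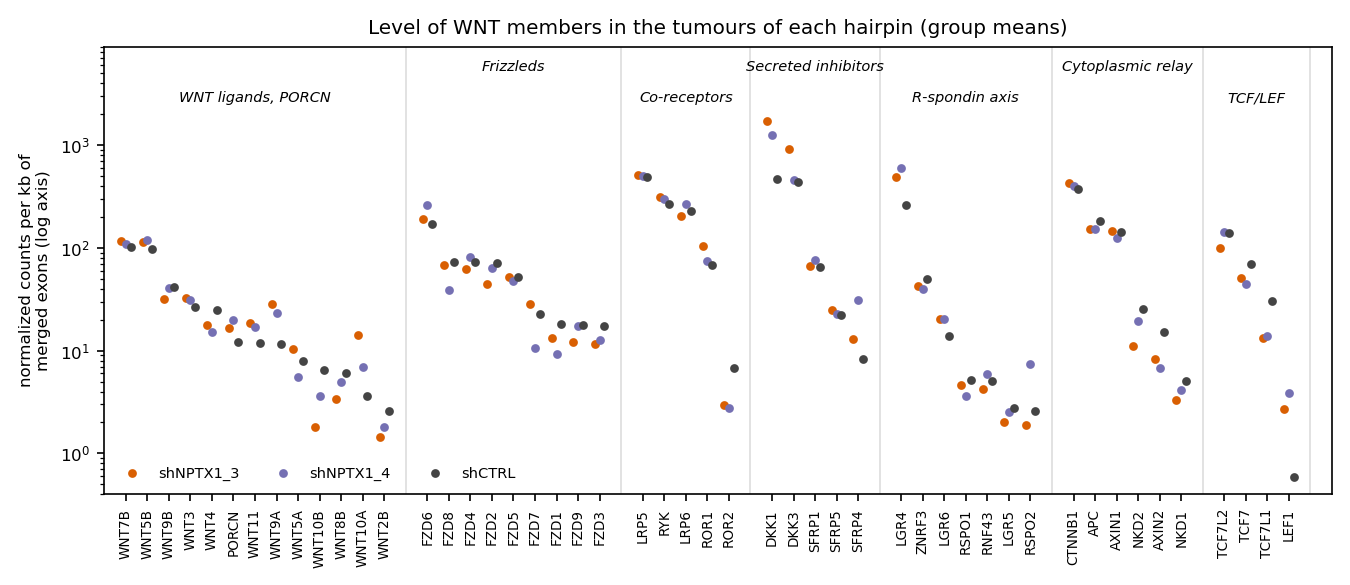
Mean level of the 49 genes with at least 10 normalized counts over all libraries, per kilobase of merged exons (y axis, log scale), in shNPTX1_3, shNPTX1_4 and shCTRL tumours (points left to right within each gene, by role on the x axis). DKK1 stands highest in the shNPTX1_3 tumours at 1715 normalized counts per kb, against 472 in shCTRL, while every WNT ligand lies under 120.

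Of the 10 frizzled receptors, FZD6 rose, FZD3 and FZD1 fell and 7 were not called, beside 15.8% of all genes higher and 11.5% lower. FZD6 was the most abundant per kilobase, at 210 normalized counts over all libraries, ahead of FZD4 at 72.6. FZD6, a frizzled tied to planar polarity and able to oppose canonical signalling, averaged 783 normalized counts in shNPTX1_3 and 1072 in shNPTX1_4, against 689 in shCTRL tumours. Its log2 fold change was 0.47 (SE 0.14, DESeq2 adjusted p 0.0063, the authors' deposited table), and the shNPTX1_4 mean was the farther from shCTRL. FZD3, a frizzled of axon guidance and planar polarity, averaged 159 in shNPTX1_3 and 177 in shNPTX1_4, against 241 in shCTRL tumours, and fell by 0.51 on the log2 scale (SE 0.15, DESeq2 adjusted p 0.0048, the authors' deposited table).

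FZD1, a receptor for canonical ligands, had 99.3, 90.6 and 86.8 normalized counts in shNPTX1_3 libraries and 57.7, 73.6, 52.2 and 72.1 in shNPTX1_4 libraries, against 119, 118, 144 and 128 in shCTRL libraries. All 7 knockdown libraries lay below all 4 shCTRL libraries, with those of shNPTX1_4 lowest. The log2 fold change of FZD1 was -0.74 (SE 0.18, DESeq2 adjusted p 4.0e-04) in the authors' deposited table, and the log2 ratio of library means stayed between -0.82 and -0.67 with each library left out.

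FZD7, often the main canonical receptor of epithelial stem cells, had 121, 87.3 and 120 normalized counts in shNPTX1_3 libraries and 45.1, 41.2, 39.7 and 36.1 in shNPTX1_4 libraries, against 85.1, 76.9, 97.4 and 90.5 in shCTRL libraries. The 4 shNPTX1_4 libraries lay below every other library, and the shNPTX1_3 libraries overlapped with shCTRL. With the hairpins as 1 group FZD7 was not called (log2 fold change -0.33, SE 0.33, DESeq2 adjusted p 0.490, the authors' deposited table). FZD9 went the other way between the hairpins: it had 35.9, 21.0 and 27.7 in shNPTX1_3 libraries, all below the 39.2, 42.2, 37.5 and 44.2 of shNPTX1_4 libraries and the 37.3, 44.5, 36.7 and 47.4 of shCTRL libraries. FZD8 averaged 277 in shNPTX1_3 and 155 in shNPTX1_4, against 291 in shCTRL tumours, and was not called (DESeq2 adjusted p 0.103, the authors' deposited table).

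FZD4, the receptor of norrin as well as of WNT ligands, averaged 463 normalized counts in shNPTX1_3 and 595 in shNPTX1_4, with shCTRL at 533, and its exons overlap those of PRSS23 on the other strand over 18.9% of their bases. FZD5 averaged 353 in shNPTX1_3 and 320 in shNPTX1_4, against 347 in shCTRL tumours. It is the frizzled that RNF43-mutant pancreatic carcinoma lines are known to depend on. FZD2 averaged 93.9 in shNPTX1_3 and 134 in shNPTX1_4, against 150 in shCTRL tumours, and was not called (DESeq2 adjusted p 0.119, the authors' deposited table). FZD10 had between 0.982 and 7.59 normalized counts in all libraries.

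Among the co-receptors, LRP5 and LRP6, which pair with frizzleds in the canonical branch, were not called. LRP5 averaged 3123 normalized counts in shNPTX1_3 and 3070 in shNPTX1_4, against 2982 in shCTRL tumours, and LRP6 averaged 2127 in shNPTX1_3 and 2780 in shNPTX1_4, against 2362 in shCTRL tumours. RYK, an atypical receptor kinase that binds WNT ligands, averaged 2523 in shNPTX1_3 and 2429 in shNPTX1_4, against 2172 in shCTRL tumours. This was a small difference, with a log2 fold change of 0.19 (SE 0.07, DESeq2 adjusted p 0.0355, the authors' deposited table), and its call was lost with group means scaled to the same total. ROR2, a receptor kinase for WNT5A, averaged 17.1 in shNPTX1_3 and 16.2 in shNPTX1_4, against 39.0 in shCTRL tumours. It fell by 1.27 on the log2 scale (SE 0.32, DESeq2 adjusted p 6.6e-04, the authors' deposited table). The related ROR1 averaged 707 in shNPTX1_3 and 497 in shNPTX1_4, against 457 in shCTRL tumours, and was not called (log2 fold change 0.36, SE 0.17, DESeq2 adjusted p 0.0892, the authors' deposited table). Per kilobase ROR1 stood at 80.4 normalized counts over all libraries and ROR2 at 4.25.

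In the cytoplasmic relay no gene was called higher and 3 of 6 were lower, beside 15.8% of all genes higher and 11.5% lower. AXIN2, a scaffold of the destruction complex and itself a widely used β-catenin target gene, averaged 43.4 normalized counts in shNPTX1_3 and 35.8 in shNPTX1_4, against 79.0 in shCTRL tumours. AXIN2 had a log2 fold change of -1.04 (SE 0.24, DESeq2 adjusted p 1.6e-04, the authors' deposited table). A same-strand gene model, AC004805.1, shares 25.2% of its exon bases, so part of its reads could have been assigned otherwise. NKD2, which binds Dishevelled and dampens the signal, averaged 32.0 in shNPTX1_3 and 56.0 in shNPTX1_4, against 72.9 in shCTRL tumours, and fell by 0.66 on the log2 scale (SE 0.24, DESeq2 adjusted p 0.0277, the authors' deposited table). APC, the destruction complex scaffold lost in colorectal carcinoma, averaged 1888 in shNPTX1_3 and 1912 in shNPTX1_4, against 2278 in shCTRL tumours, and fell by 0.26 on the log2 scale (SE 0.07, DESeq2 adjusted p 0.0025, the authors' deposited table). AXIN2 thus had the largest change of the 3 and APC the smallest.

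CTNNB1, which encodes β-catenin, averaged 5130 normalized counts in shNPTX1_3 and 4797 in shNPTX1_4, against 4459 in shCTRL tumours, and was not called (log2 fold change 0.15, SE 0.09, DESeq2 adjusted p 0.229, the authors' deposited table). AXIN1, the constitutive scaffold, averaged 1095 in shNPTX1_3 and 932 in shNPTX1_4, against 1068 in shCTRL tumours. NKD1, like NKD2 a Dishevelled-binding inhibitor, had 62.6, 72.8 and 38.8 in shNPTX1_3 libraries and 70.3, 58.9, 71.5 and 84.9 in shNPTX1_4 libraries, against 94.1, 97.7, 79.7 and 77.6 in shCTRL libraries. All shNPTX1_3 libraries of NKD1 lay below shCTRL, 1 shNPTX1_4 library did not, and the gene was not called (DESeq2 adjusted p 0.0621, the authors' deposited table).

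Of the 4 TCF/LEF factors, which carry β-catenin to its target genes, LEF1 rose, TCF7L1 and TCF7 fell and TCF7L2 was not called. The shares over all genes were 15.8% higher and 11.5% lower. LEF1 averaged 14.4 normalized counts in shNPTX1_3 and 20.7 in shNPTX1_4, against 3.14 in shCTRL tumours. Its rise was 5.58-fold (log2 fold change 2.48, SE 0.54, DESeq2 adjusted p 6.3e-05, the authors' deposited table), from the lowest level per kilobase of the 4, and LEF1-AS1 on the other strand shares 5.20% of its exon bases. TCF7L1, which mostly represses in the absence of β-catenin, had 59.3, 67.9 and 48.0 in shNPTX1_3 libraries and 69.6, 42.2, 51.1 and 81.4 in shNPTX1_4 libraries, against 166, 136, 127 and 111 in shCTRL libraries. All 7 knockdown libraries of TCF7L1 lay below all 4 shCTRL libraries, and the hairpins overlapped. The fold change of TCF7L1 was -1.18 on the log2 scale (SE 0.19, DESeq2 adjusted p 2.12e-08) in the authors' deposited table, and the log2 ratio of library means stayed between -1.26 and -1.05 with each library left out.

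TCF7, known from T cells and also expressed in epithelia, averaged 517 normalized counts in shNPTX1_3 and 443 in shNPTX1_4, against 698 in shCTRL tumours, and fell by 0.56 on the log2 scale (SE 0.13, DESeq2 adjusted p 3.6e-04, the authors' deposited table). TCF7L2, the main factor of intestinal epithelium, averaged 675 in shNPTX1_3 and 953 in shNPTX1_4, against 941 in shCTRL tumours, and was not called (DESeq2 adjusted p 0.510, the authors' deposited table). TCF7L2 and TCF7 were the most abundant of the 4 per kilobase, at 130 and 55.3 normalized counts over all libraries, against 19.7 for TCF7L1 and 2.35 for LEF1.

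The hairpins were next set side by side on the log2 ratio of group means with a pseudocount of 1, over the 38 genes averaging 38.4 normalized counts or more (2 CPM, against the table's mean total). These ratios have no test, and the comparisons with shCTRL share its 4 libraries. At least 2-fold apart in shNPTX1_3 tumours from shCTRL were WNT9A, DKK3 and DKK1 on the high side (2.95% of all genes at this level) and NKD2 and TCF7L1 on the low side (1.51% of all genes). In shNPTX1_4 tumours they were DKK1, SFRP4 and LGR4 on the high side (1.48% of all genes) and FZD7, AXIN2 and TCF7L1 on the low side (1.24% of all genes). DKK1 and TCF7L1 were thus past 2-fold with either hairpin, DKK1 at log2 ratios of 1.86 in shNPTX1_3 and 1.42 in shNPTX1_4, TCF7L1 at -1.19 in shNPTX1_3 and -1.13 in shNPTX1_4. Some that missed 2-fold in 1 hairpin came close, such as WNT9A at 0.99 in shNPTX1_4 and LGR4 at 0.89 in shNPTX1_3.

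Between the hairpins, FZD7 and DKK3 were at least 2-fold higher in shNPTX1_3 than in shNPTX1_4 tumours (1.82% of all genes), with log2 ratios of 1.41 and 1.02. SFRP4 was at least 2-fold lower (0.870% of all genes), at -1.23.

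**Figure D3:**
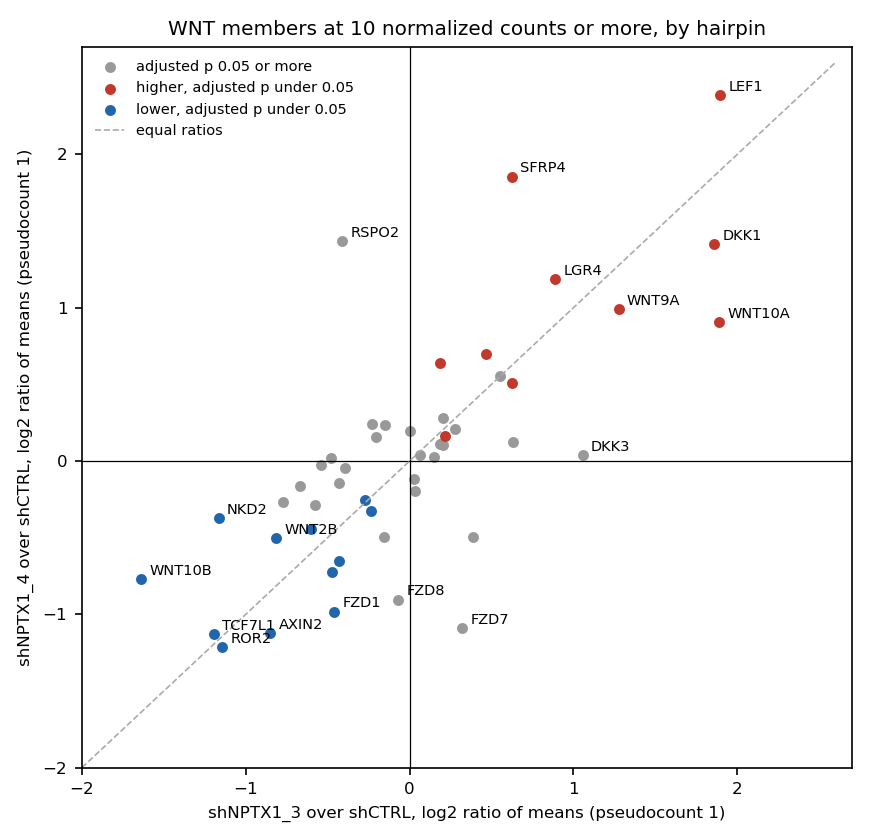
Log2 ratio of group means (pseudocount 1) over shCTRL for shNPTX1_3 (x axis) and shNPTX1_4 (y axis), for the 49 genes with at least 10 normalized counts; colours give the call for the hairpins together. Both axes share the shCTRL libraries, so no likeness of the hairpins is read from the plot; away from the dashed line of equal ratios lie FZD7 (0.32 on x, -1.09 on y) and DKK3 (1.06 on x, 0.04 on y).

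Reads of all 11 libraries could be worked out for 13 of the 62 genes. In 4 of them (WNT9A and SFRP4 above, FZD1 and TCF7L1 below) all 7 knockdown libraries lay to 1 side of the 4 shCTRL libraries, as in 7.99% of the 2993 genes with reads of all libraries. In 9 of the 13 the 3 shNPTX1_3 libraries did not overlap with the 4 shCTRL libraries, as in 26.5% of genes, and in 5 of the 13 the 4 shNPTX1_4 libraries did not, as in 15.7% of genes. The shNPTX1_3 and shNPTX1_4 libraries were apart in 6 of the 13, as in 15.0% of genes: WNT10A, WNT6, FZD1 and FZD7 were higher and FZD9 and SFRP4 lower in shNPTX1_3. With 3 libraries against 4, a two-sided exact permutation test cannot go below p = 0.0571, so no test is given for single genes between hairpins.

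**Figure D4:**
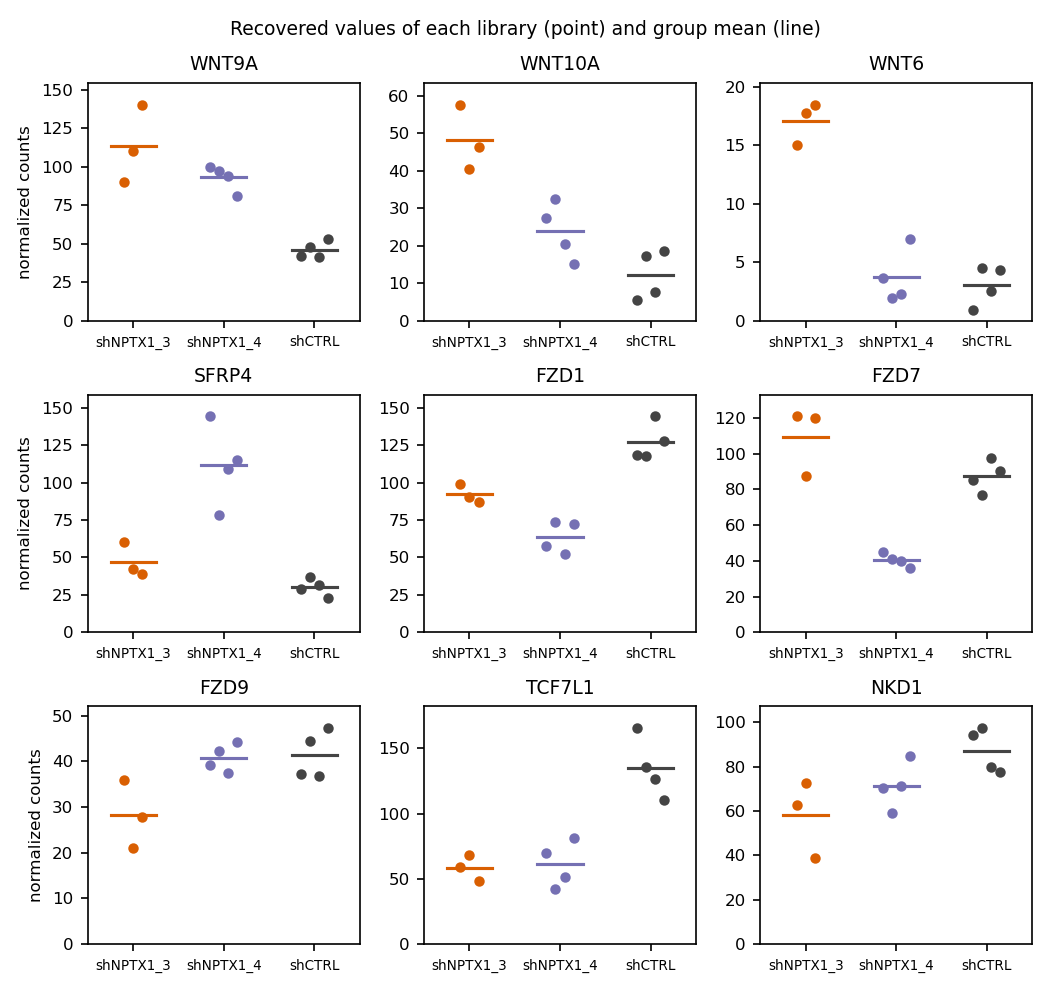
Normalized counts (y axis, from 0) of each library (points) and the mean of each group (lines) for 9 of the 13 genes with reads worked out for all libraries, in shNPTX1_3, shNPTX1_4 and shCTRL tumours. In WNT9A the knockdown points lie between 81.4 and 140, above the shCTRL points of 41.8 to 53.1, whereas in FZD7 the shNPTX1_4 points, 36.1 to 45.1, lie below both other groups.

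A further 99 genes of the pathway, listed by role, were read in the same comparison. Of these, 95 had an adjusted p, of which 11 were higher and 17 lower, beside the 15.8% higher and 11.5% lower over all genes, with a median log2 fold change of -0.10. WLS, the carrier that brings WNT ligands to the cell surface, averaged 789 normalized counts in shNPTX1_3 and 829 in shNPTX1_4, against 337 in shCTRL tumours. It rose by 1.26 on the log2 scale (SE 0.10, DESeq2 adjusted p 1.15e-32, the authors' deposited table), within a list of 18 secreted and surface regulators of which 3 were higher and 2 lower. In the same list CTHRC1, a secreted protein that binds WNT and frizzled, rose by 0.94 (DESeq2 adjusted p 0.0016, the authors' deposited table), and the glypican GPC4 fell by 0.86 (DESeq2 adjusted p 0.0231, the authors' deposited table).

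Among the nuclear partners of β-catenin, 5 of 9 co-activators were lower and none higher, and of 9 co-repressors or inhibitors 2 were higher and none lower, beside 15.8% of all genes higher and 11.5% lower. PYGO1, which reads a histone mark for the β-catenin complex, averaged 61.1 normalized counts in shNPTX1_3 and 33.0 in shNPTX1_4, against 109 in shCTRL tumours, a log2 fold change of -1.31 (SE 0.22, DESeq2 adjusted p 9.41e-08, the authors' deposited table). BCL9L and BCL9, which link PYGO proteins to β-catenin, fell by 0.70 and by 0.60 on the log2 scale (DESeq2 adjusted p 1.31e-06 and 9.1e-04, the authors' deposited table). The other lower co-activators were the acetyltransferases CREBBP and EP300, and the higher co-repressors were CTBP1 and CTBP2. With group means scaled to the same total, 7 co-activators were lower, and among the co-repressors 1 was higher and 1 lower. That scaling lowers the log2 fold change of every gene by 0.07, and shares over all genes under it are not given here.

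Of 22 further cytoplasmic genes 2 were higher and 4 lower, beside the same shares over all genes (15.8% and 11.5%). With group means scaled to the same total, which lowers the log2 fold change of every gene alike, 2 were higher and 7 lower. The largest changes were those of CXXC4, a Dishevelled-binding inhibitor (log2 fold change -0.94, DESeq2 adjusted p 0.0308, the authors' deposited table), DACT2, another Dishevelled-binding protein (0.93, DESeq2 adjusted p 0.0138, the authors' deposited table) and the kinase GSK3A (-0.45, DESeq2 adjusted p 0.0038, the authors' deposited table). CXXC4 averaged 162 normalized counts in shNPTX1_3 and 378 in shNPTX1_4, against 550 in shCTRL tumours, the shNPTX1_3 mean being the farther from shCTRL. Of 21 genes of the planar polarity and calcium branch 1 was higher and 3 lower, beside 15.8% of all genes higher and 11.5% lower. With group means scaled to the same total none was higher and 6 were lower, with no shares over all genes to set beside them. The transcription factor NFATC2 fell by 0.66, the polarity protein ANKRD6 by 0.61 and the formin DAAM1 by 0.54 on the log2 scale (DESeq2 adjusted p 0.0161, 0.0110 and 2.81e-08, the authors' deposited table). Of 17 β-catenin target genes described in other tissues 3 were higher and 3 lower, beside 15.8% of all genes higher and 11.5% lower. The liver targets GLUL and OAT had log2 fold changes of 0.68 and 0.63, and TBX3, also a liver target, fell by 0.61 on the log2 scale (DESeq2 adjusted p 0.0242, 2.3e-05 and 4.1e-05, the authors' deposited table). GLUL stood apart in shNPTX1_4 tumours only, with 175 normalized counts in shNPTX1_3 and 346 in shNPTX1_4, against 171 in shCTRL tumours. The median log2 fold change of this list was 0.03.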

How the data were processed

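RNA-seq libraries were made from total RNA with a TruSeq kit, per the labels' protocols. Per the submitters' processing notes, the tools include STAR 2.7.6a, featureCounts 2.0.0 and DESeq2 1.24, and the builds are hg19 and mm39. The sources used here do not give the annotation, the strand setting or what was done with mouse reads. Per the file headers, the authors deposited for each gene the signal (normalized counts averaged within a group), a log2 fold change and its standard error, the Wald statistic (a score), a p-value and an adjusted p. No library's own values are in that table. Of its 23434 rows, 106 were left out: 79 without a name, 26 named by a date and 1 with a repeated name.

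The planned test was the one in the authors' deposited table. Named genes are all those called or at 10 CPM or more, and in the other lists the 3 called genes with the largest absolute log2 fold change; further genes are named to account for every gene of the family. The genes and lists were chosen with earlier results of these data known.

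The group mean of a low gene can be written as a sum of whole reads, each worth a fixed step per library, where the values behind it were whole reads. Reads of each library were worked out from these steps, without knowing which replicate number a library has, and the procedure was tested on simulated data. Where the group means left several sets of reads, the set was kept that alone gave the deposited fold change, given its standard error. A value counted as whole reads within the rounding of its deposited digits (at most 5.3e-05 normalized counts) and with under 0.05 chance matches expected. Of 8968 genes looked up, 4771 (53.2%) were sums of whole reads. Of 1615 with a single solution from the group means alone, 1606 (99.4%) gave the deposited fold change within 2e-05 on the log2 scale. That check does not cover genes whose reads were chosen with the fold change, which are among the 2993 with reads of all libraries. For the other genes no value per library is given. In a group mean shallow libraries weigh as much as deep ones, and counting error alone is large under 10 normalized counts.

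Lengths for levels per kilobase are merged exons of GENCODE release 29 and include exons of rare transcripts. Ratios used a pseudocount of 1, which understates changes of low genes. Python 3.11.15, numpy 2.4.6, pandas 2.3.3, scipy 1.17.1 and matplotlib 3.10.9 were used.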

Additional observations from a re-analysis of the deposited data

How the results depend on the processing

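No paired analysis was possible because the deposited table gives group means, and no value there is tied to a replicate number. For the same reason leaving out replicates could not be run across all genes. The WNT genes called numbered 7 higher and 8 lower at an adjusted p under 0.01, 7 higher and 14 lower with group means scaled to the same total (a shift of 0.07 in log2), and 9 higher and 12 lower when every gene with a p was adjusted for, against 10 and 12. The stricter threshold ended the calls of WNT11, WNT2B, WNT10B, PORCN, RYK, ZNRF3 and NKD2, by its construction. The scaling, which lowers the log2 fold change of every gene alike, ended those of WNT11, PORCN and RYK and added WNT16 and NKD1. FZD4 and LRP5, not called, changed sign under it, to log2 fold changes of -0.049 and -0.016. The other pathway genes numbered 6 higher and 11 lower at an adjusted p under 0.01, against 11 and 17. They numbered 8 higher and 27 lower with scaled means, and 8 higher and 17 lower when every gene with a p was adjusted for. Genes 2-fold apart, with no minimum level, numbered 6 higher and 5 lower for shNPTX1_3 over shCTRL (against 3 and 2), 5 higher and 6 lower for shNPTX1_4 over shCTRL (against 3 and 3), and 4 higher and 2 lower for shNPTX1_3 over shNPTX1_4 (against 2 and 1). At a minimum of 10 CPM the lower counts were 0, 0 and 0, and 1 gene (DKK3) was higher in shNPTX1_3 than in shNPTX1_4. With scaled means 1 gene (FZD7) was. Under these minimums other genes were counted, and the remaining causes were not tested. Pseudocounts of 0.1 and 5 left every such count within 1.5 times. Leaving out each library was added after seeing the data, for the 13 genes with reads of all libraries: the log2 ratio of WNT10A ran between 1.24 and 1.76, that of FZD7 between -0.51 and -0.21, and that of SFRP5, not called, changed sign, between -0.01 and 0.18.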
